A study of Mus musculus with 8 samples.

Results

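The Hox genes were read in RNA sequenced from mouse tissue labelled spinal cord, to describe the level along the body axis that each library represents. The set was every row of the count table whose symbol is Hoxa, Hoxb, Hoxc or Hoxd followed by a paralog number, which gave 39 of the 47643 genes. The 8 C57BL/6 mice were 2 to 10 months old as a cohort, and each gave 1 library. Of these, 4 were labelled homozygous and 4 heterozygous for a deletion of Arf1, a small GTPase of the Golgi, to be induced by tamoxifen injected into the peritoneum at 100 mg/kg. The labels describe that injection for ablation without naming a genotype, so the sources used here do not say whether both genotypes received it, nor name the Cre driver or the segments of cord dissected. Below, values in a row follow replicates 1 to 4 of a genotype as labelled, 1 mouse each, and p-values measure the spread between these mice.

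Hox genes encode homeodomain transcription factors that give cells their identity along the axis from head to tail. They lie in clusters, and their order in a cluster follows the order of their domains in the embryo: low paralog numbers begin in the hindbrain, middle numbers mark cervical and thoracic cord, and high numbers mark lumbar and sacral cord. Much of this pattern persists in adult neurons and glia, while the forebrain and midbrain lack it. In the spinal cord Hox proteins, with Pbx and Meis cofactors, set which motor neuron columns and pools form at limb and trunk levels.

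The 39 genes lie in 4 clusters, positioned here by GENCODE M21 on GRCm38 (mm10). The Hoxa cluster holds 11 of them on the minus strand at chr6:52155590-52260880, and Hoxb holds 10 on the plus strand at chr11:96194316-96368256. Hoxc holds 9 on the plus strand at chr15:102921103-103036852, and Hoxd holds 9 on the plus strand at chr2:74668310-74765142. Ordered by their 3′ ends, the genes of every cluster run from the highest to the lowest paralog number in the direction of transcription. Reads were assigned by RSEM, which splits reads shared between genes, and 11 of the 39 genes had fractional expected counts. These were Hoxa2, Hoxb2, Hoxa3, Hoxb3, Hoxd3, Hoxd4, Hoxc5, Hoxa7, Hoxc10, Hoxa11 and Hoxd11, whose values are less certain.

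The bases just upstream of 3 genes are shown: Hoxd10 and Hoxa10, lumbar genes that varied together between mice, and Hoxb8, the Hox gene with the highest mean level. A link between these sequences and the Hox levels was not tested. Each line gives 250 bases before the start of transcription from RefSeq (GRCm38.p6), with Hoxa10 shown at both of its listed starts. Capitals mark TTTAT or its reverse complement ATAAA, the core letters bound by caudal-type and posterior Hox homeodomains.
Hoxd10 chr2:74691641-74691890 (plus strand): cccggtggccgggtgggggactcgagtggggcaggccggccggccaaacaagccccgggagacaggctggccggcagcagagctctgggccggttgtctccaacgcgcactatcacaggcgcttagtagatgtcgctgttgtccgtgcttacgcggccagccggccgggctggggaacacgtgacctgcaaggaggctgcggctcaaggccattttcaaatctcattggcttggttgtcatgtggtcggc
Hoxa10 chr6:52240855-52241104 (minus strand): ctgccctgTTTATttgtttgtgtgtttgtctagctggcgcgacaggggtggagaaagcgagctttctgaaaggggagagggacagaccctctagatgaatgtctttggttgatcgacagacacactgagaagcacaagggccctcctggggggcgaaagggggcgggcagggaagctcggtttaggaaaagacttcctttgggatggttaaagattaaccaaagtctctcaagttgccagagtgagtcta
Hoxa10 chr6:52234940-52235189 (minus strand): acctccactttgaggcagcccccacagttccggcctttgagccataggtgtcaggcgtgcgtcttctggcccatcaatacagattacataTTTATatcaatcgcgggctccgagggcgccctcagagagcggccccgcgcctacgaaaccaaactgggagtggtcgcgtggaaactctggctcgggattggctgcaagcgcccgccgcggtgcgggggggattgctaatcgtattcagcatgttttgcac
Hoxb8 chr11:96281655-96281904 (plus strand): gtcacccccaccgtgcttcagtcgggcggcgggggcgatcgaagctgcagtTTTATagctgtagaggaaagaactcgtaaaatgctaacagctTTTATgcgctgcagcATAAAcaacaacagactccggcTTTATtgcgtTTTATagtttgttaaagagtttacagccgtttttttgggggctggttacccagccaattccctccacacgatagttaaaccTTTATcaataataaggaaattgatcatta
Hoxb8 held 6 matches to TTTAT over both strands, each Hoxa10 window held 1 and Hoxd10 held 0. The G and C content was 44.4% for Hoxb8 and 65.6% for Hoxd10. Over all 32851 RefSeq windows of this length 37.3% held TTTAT, and so did 9 of the 24 windows found for Hox genes, which belong to 22 of the 39 genes. AGGTCA, the half-site of retinoic acid receptors, was in 14% of all windows and in 6 of the 24. Both strands were searched, and TTTAT and ATAAA can overlap each other by their shared letters.

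The libraries held 26321522 to 37879426 expected counts for the homozygous label and 29857210 to 37803594 for the heterozygous label, so that 3 counts correspond to 0.0792 to 0.114 CPM (counts scaled to library size). The RNA integrity number was 8 in homozygous replicate 4 and 9 in the other libraries. Arf1, the targeted gene, had 307, 22.5, 22.9 and 39.9 CPM in the homozygous mice and 334, 296, 322 and 303 CPM in the heterozygous mice. The library labelled homozygous replicate 1 therefore stood at the heterozygous level of Arf1, against its label, and the main comparisons are given with it (8 libraries) and without it (7 libraries). Muscle genes stood high in heterozygous replicate 1, where the 8 listed genes summed to 617 CPM, against 7.88 to 76.9 CPM in the other libraries.

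Hox transcripts were present in all 8 libraries, with a trunk profile. Summed over the 39 genes they came to 122, 48.5, 57.8 and 119 TPM (transcripts scaled to length and library size) in the homozygous mice, and to 83.2, 94.2, 151 and 129 TPM in the heterozygous mice. Homozygous replicates 2 and 3 had the lowest sums of the series, while replicates 1 and 4 lay inside the heterozygous range. The ratio of the homozygous to the heterozygous mean was 0.759 on the TPM scale and 0.856 on the scale of CPM with TMM scaling. On the log2(TPM + 1) scale the median of all genes tested was itself shifted by -0.14, so the CPM ratio is the one relative to the other genes. Without the library labelled homozygous replicate 1 these ratios were 0.656 and 0.771. In bulk tissue, fewer cells of a type and less RNA per cell cannot be told apart.

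Forebrain transcripts were also present in every library, although the tissue label is spinal cord. Of 12 forebrain markers 10 had at least 1 CPM in every library, and the 12 summed to 397 to 487 CPM in the homozygous and 376 to 470 CPM in the heterozygous mice. Tbr1, a transcription factor of cortical projection neurons, had 104, 123, 144 and 109 CPM in the homozygous mice, against 134, 121, 103 and 89.98 CPM in the heterozygous mice, with the genotypes overlapping. Slc17a7, the vesicular glutamate transporter of cortical neurons, chosen after its values were seen, reached 785 to 1126 CPM in the homozygous and 747 to 1087 CPM in the heterozygous mice. Hindbrain markers were low, with a list sum of 4.03 to 9.22 CPM in the homozygous and 4.16 to 9.78 CPM in the heterozygous mice. Slc6a5, the glycine transporter of inhibitory neurons in cord and brainstem, had 57.9, 24.1, 24.9 and 46.5 CPM in the homozygous mice and 43.2, 42.9, 82.7 and 91.4 CPM in the heterozygous mice. Slc6a5 was lowest in homozygous replicates 2 and 3, the libraries with the least Hox RNA, but it was singled out after its values were seen. The 13 listed genes of regional neurons, Slc6a5 among them, did not share this order. They summed to 1227, 1116, 815 and 894 CPM in the homozygous mice and to 956, 797, 861.5 and 976 CPM in the heterozygous mice. Homozygous replicate 2 thus lay above every heterozygous library in that sum. The part of these region markers in the Hox levels was not tested.

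**Figure D1:**
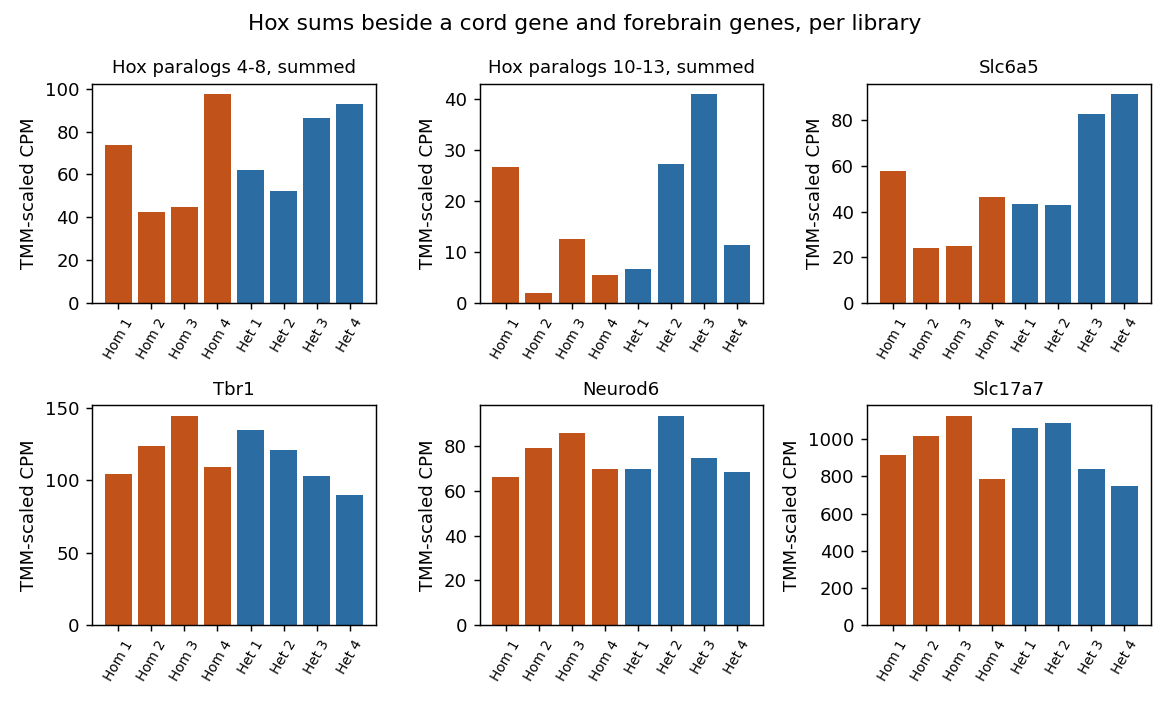
Bars give the CPM with TMM scaling (y axis) in each library (x axis; Hom, labelled homozygous, orange; Het, heterozygous, blue) for 2 Hox sums, the cord and brainstem gene Slc6a5 and the forebrain genes Tbr1, Neurod6 and Slc17a7. Homozygous replicates 2 and 3 are low in the sum of paralogs 4 to 8 (42.7 and 44.97 CPM) and in Slc6a5. Slc6a5 is 1 of 13 listed genes of regional neurons, chosen after its values were seen, and the list sum does not share this order.

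The hindbrain and upper cervical paralogs, 1 to 3, were faint. Hoxb2, a gene of hindbrain segments, had 2.08, 0.69, 0.63 and 1.72 TPM in the homozygous mice and 1.31, 0.72, 1.57 and 1.41 TPM in the heterozygous mice. Hoxb3, its neighbour in the cluster, had 2.09, 0.76, 0.75 and 2.30 TPM in the homozygous mice and 0.96, 1.64, 1.74 and 1.81 TPM in the heterozygous mice. Both were lowest in homozygous replicates 2 and 3, and in each the genotypes overlapped. The other paralog 1 to 3 genes were below a mean of 1 TPM, from Hoxb1, which was listed at 0 in 6 libraries, to Hoxa3, which ranged from 0.33 to 0.84 TPM in the homozygous and 0.47 to 1.04 TPM in the heterozygous mice. Hoxb1 and Hoxd1 did not pass the filter on low counts.

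Paralog 4 and 5 genes, whose domains begin at cervical levels, were low to moderate. Hoxa4 had 1.11, 0.62, 0.48 and 2.49 TPM in the homozygous mice and 1.32, 1.40, 1.59 and 1.61 TPM in the heterozygous mice. Hoxc4 had 1.60, 0.90, 0.74 and 1.80 TPM in the homozygous mice and 1.18, 1.24, 1.64 and 1.96 TPM in the heterozygous mice. Both had their lowest values in homozygous replicates 2 and 3 and overlapped between genotypes. Hoxa5, which with Hoxc5 maintains the phrenic motor neurons of breathing in mice, had 3.60, 1.72, 1.96 and 3.28 TPM in the homozygous mice and 2.07, 2.26, 3.11 and 3.56 TPM in the heterozygous mice. Hoxb5 had 4.74, 2.50, 2.58 and 5.09 TPM in the homozygous mice and 3.59, 3.07, 5.51 and 5.20 TPM in the heterozygous mice. These too were lowest in homozygous replicates 2 and 3, while replicates 1 and 4 lay at the upper end of the series. Hoxc5 had 0.40, 0.29, 0.37 and 0.32 TPM in the homozygous mice and 0.60, 0.41, 0.28 and 1.0 TPM in the heterozygous mice. Hoxd4 had 0.31, 0.24, 0.27 and 0.55 TPM in the homozygous mice and 0.54, 0.38, 0.99 and 0.91 TPM in the heterozygous mice. The genotypes overlapped in both, with Hoxd4 below 0.4 TPM in homozygous replicates 1, 2 and 3 and in heterozygous replicate 2. Hoxb4 lay at 0.28 to 0.80 TPM in the homozygous and 0.47 to 0.92 TPM in the heterozygous mice.

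Paralogs 6 to 8, of brachial and thoracic cord, included the Hox gene with the highest mean level. Hoxb8, which acts in dorsal horn sensory circuits and in a lineage of microglia in mice, had 16.8, 7.83, 8.84 and 19.8 TPM in the homozygous mice and 12.7, 9.44, 19.8 and 18.8 TPM in the heterozygous mice. Hoxa7 had 8.15, 4.42, 4.91 and 12.4 TPM in the homozygous mice and 8.27, 7.11, 10.98 and 10.5 TPM in the heterozygous mice. Hoxb6 had 8.74, 4.13, 3.68 and 10.3 TPM in the homozygous mice and 6.36, 5.89, 10.8 and 8.94 TPM in the heterozygous mice. These 3 genes were low in homozygous replicates 2 and 3 and in heterozygous replicate 2, and highest in homozygous replicate 4 and heterozygous replicate 3. Hoxb7 had 7.79, 4.13, 2.69 and 8.82 TPM in the homozygous mice and 4.61, 3.93, 8.89 and 6.12 TPM in the heterozygous mice. Hoxd8 had 6.65, 2.29, 3.65 and 7.30 TPM in the homozygous mice and 5.31, 6.56, 9.52 and 8.37 TPM in the heterozygous mice. Hoxc6, which marks the lateral motor column at forelimb level, had 2.44, 1.46, 0.97 and 2.82 TPM in the homozygous mice and 3.72, 1.79, 2.36 and 5.17 TPM in the heterozygous mice. Each overlapped between genotypes, and Hoxc6 was highest in heterozygous replicate 4. Hoxc8, which sets forelimb motor pools in mice, had 5.31, 4.28, 2.31 and 10.9 TPM in the homozygous mice and 8.18, 4.45, 3.49 and 23.2 TPM in the heterozygous mice. Its level in heterozygous replicate 4 was the highest single Hox value of the series, and the ratio of Hoxc8 to Hoxb8 was 0.317, 0.547, 0.261 and 0.548 in the homozygous and 0.644, 0.471, 0.177 and 1.24 in the heterozygous mice. Heterozygous replicate 4 also had the highest sum of 9 dorsal root ganglion markers, 27.8 CPM, against 7.82 to 15.1 CPM in the homozygous and 9.35 to 14.9 CPM in the other heterozygous libraries, and the part of such cells in Hoxc8 was not tested. Hoxa6, which did not pass the filter on low counts, lay at 0.16 to 0.48 TPM in the homozygous and 0.08 to 1.55 TPM in the heterozygous mice.

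Paralog 9 marks thoracic cord and its border with lumbar cord. Hoxb9 had 11.4, 5.03, 6.31 and 13.5 TPM in the homozygous mice and 6.26, 4.79, 9.74 and 9.11 TPM in the heterozygous mice. Hoxa9 had 6.15, 1.99, 2.35 and 4.21 TPM in the homozygous mice and 4.44, 4.58, 9.82 and 3.23 TPM in the heterozygous mice. Hoxc9, which keeps forelimb motor identity out of the thoracic cord in mice, had 1.11, 0.68, 0.67 and 1.81 TPM in the homozygous mice and 0.89, 0.98, 0.98 and 0.95 TPM in the heterozygous mice. Hoxc9 was close to 1 TPM in the heterozygous mice, and its homozygous values lay on both sides of that level. Hoxd9 had 3.03, 0.76, 1.93 and 0.84 TPM in the homozygous mice and 1.46, 3.51, 4.23 and 1.28 TPM in the heterozygous mice. Hoxd9 was below 1 TPM in homozygous replicates 2 and 4, and its other homozygous values lay inside the heterozygous range.

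Paralogs 10 and 11, of lumbar cord, differed widely between mice of the same genotype. Hoxd10, which with Hoxa10 and Hoxc10 specifies the motor neurons of the hindlimb, had 6.21, 0.17, 2.38 and 0.73 TPM in the homozygous mice and 0.47, 7.66, 10.5 and 2.63 TPM in the heterozygous mice. Hoxc10 had 10.03, 0.95, 4.86 and 2.48 TPM in the homozygous mice and 3.5, 10.6, 14.6 and 3.91 TPM in the heterozygous mice. Hoxa10 had 7.53, 0.43, 2.36 and 1.74 TPM in the homozygous mice and 2.50, 5.83, 7.71 and 2.09 TPM in the heterozygous mice. In all 3 the highest libraries were homozygous replicate 1 and heterozygous replicates 2 and 3, homozygous replicate 2 was the lowest, and the genotypes overlapped. The distance between the highest and the lowest library was 61.7-fold for Hoxd10, 15.4-fold for Hoxc10 and 17.9-fold for Hoxa10, against 2.53-fold for Hoxb8.

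The paralog 11 genes lie next to these in 3 clusters and followed a like order. Hoxa11, a gene also of forelimb and kidney, had 1.42, 0.10, 0.44 and 0.13 TPM in the homozygous mice and 0.02, 1.20, 1.85 and 0.40 TPM in the heterozygous mice. Hoxc11 had 0.83, 0.03, 0.37 and 0.14 TPM in the homozygous mice and 0.05, 1.5, 2.24 and 0.87 TPM in the heterozygous mice. Hoxd11 had 0.37, 0, 0.11 and 0.07 TPM in the homozygous mice and 0, 0.47, 0.73 and 0.37 TPM in the heterozygous mice. Heterozygous replicate 1 was at or near 0 in all 3 genes, as was homozygous replicate 2, and heterozygous replicate 3 was highest in all 3. Heterozygous replicate 1 is also the library with high muscle genes, whose part in these values was not tested. Hoxc11 rested on 1 to 35 expected counts per homozygous library and 2 to 90 per heterozygous library.

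**Figure D2:**
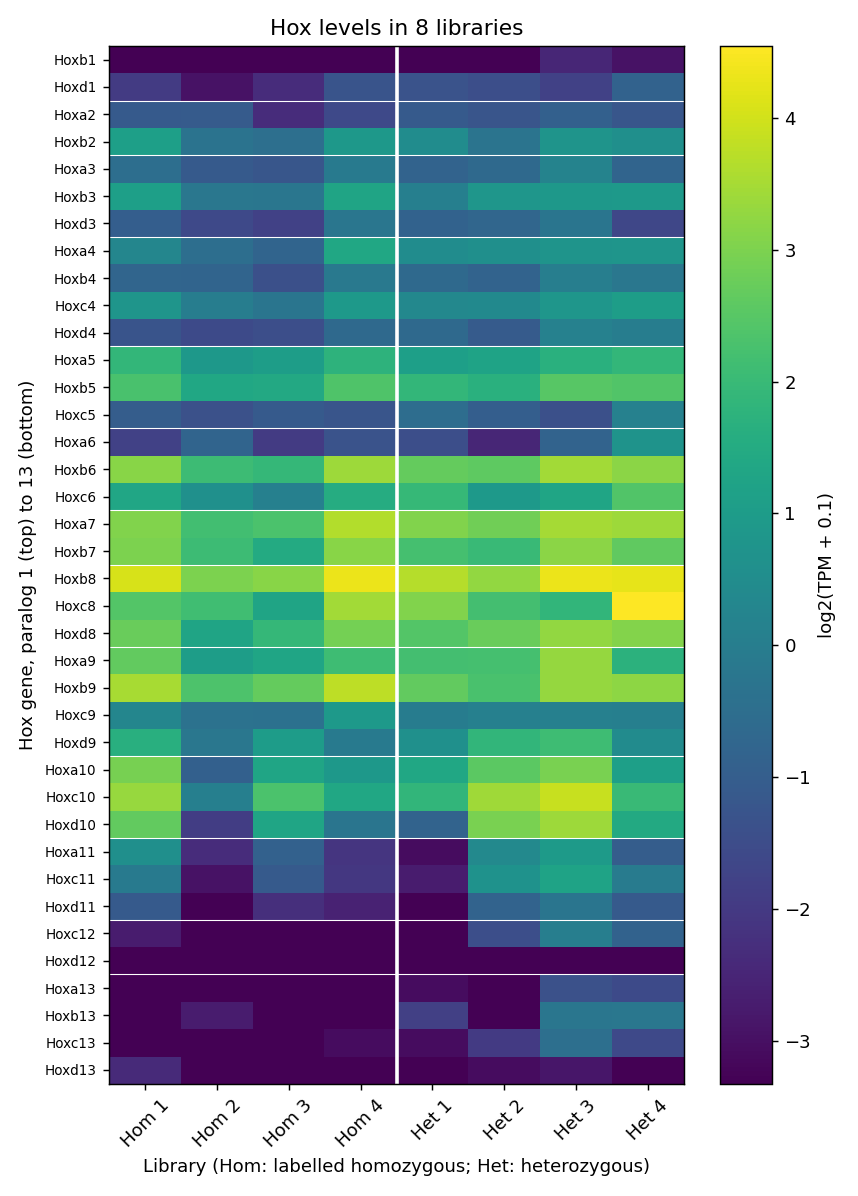
Each row is 1 of 38 Hox genes, ordered by paralog from 1 (top) to 13 (bottom), each column is 1 library (Hom, labelled homozygous, left of the white line; Het, heterozygous, right), and colour gives log2(TPM + 0.1). Most rows of paralogs 6 to 9 are bright, but Hoxa6 (0.08 to 1.55 TPM) and Hoxc9 (0.67 to 1.81 TPM) are darker. Rows of paralog 10 are brightest in homozygous replicate 1 and heterozygous replicates 2 and 3. Rows of paralog 11 are brightest in heterozygous replicate 3, and rows of both paralogs are low in homozygous replicate 2.

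Paralogs 12 and 13, of sacral and tail levels, were close to the limit of detection. Hoxb13, of the tail end of the axis, had 0, 0.05, 0 and 0 TPM in the homozygous mice and 0.18, 0, 0.75 and 0.76 TPM in the heterozygous mice. Hoxc13, known for its role in hair and nails, had 0, 0, 0 and 0.02 TPM in the homozygous mice and 0.02, 0.15, 0.64 and 0.23 TPM in the heterozygous mice. Hoxc12 had 0.05, 0, 0 and 0 TPM in the homozygous mice and 0, 0.27, 0.93 and 0.46 TPM in the heterozygous mice. Heterozygous replicates 3 and 4 held most of these reads. Summed over the 4 paralog 13 genes, the homozygous libraries held 5, 2, 0 and 1 expected counts and the heterozygous libraries 10, 7, 81 and 54. As CPM these sums were 0.131, 0.0744, 0 and 0.0326 in the homozygous and 0.267, 0.233, 2.22 and 1.41 in the heterozygous mice, so the genotypes did not overlap. Among single genes tested in 8 libraries, 4.67% were lower in the homozygous mice without overlap. The sum was chosen after its values were seen and has no test, and 3 of its 4 homozygous values lie at or under the level of 3 counts. Hoxa13, a gene of digits and the genital tract, was listed at 0 in the 4 homozygous libraries and reached 0.29 TPM in the heterozygous ones. Hoxd13 stayed at or below 0.09 TPM and Hoxd12 was listed at 0 in all 8 libraries. None of the paralog 12 and 13 genes passed the filter on low counts in the main comparisons, and counting error alone is large at these levels. In edgeR's fit without that filter 0 of them passed, where 0.232% of all genes tested were called in 8 libraries and 1.65% in 7. The smallest p was that of Hoxc13, with an edgeR adjusted p of 0.127 in 8 libraries and 0.172 in 7 (unadjusted 0.00157 and 0.00972). Hoxc12 had an edgeR adjusted p of 0.162 in 8 libraries and 0.225 in 7, Hoxb13 of 0.258 and 0.35, and Hoxa13 of 0.32 and 0.315. Each of these 4 was under 0.05 without adjustment in both, beside 11.6% of all genes in 8 libraries and 13.5% in 7. Their fitted fold changes are not given, because the homozygous libraries held so few reads that the values depend on the prior count.

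The summed level of Schwann cell markers, of nerve roots, was also lower in every library labelled homozygous than in any heterozygous one. The 11 Schwann cell genes, none of them at 0, summed to 622, 606, 692 and 609 CPM in the homozygous mice and to 759, 952, 1206 and 940 CPM in the heterozygous mice, without overlap. The sum has no test, and 4.67% of single genes tested in 8 libraries were lower without overlap. Of that list 2 of 11 genes had positive log2 fold changes, and 1 gene passed in 7 libraries, where 0.67% of all genes tested were called lower: Dhh, the hedgehog ligand of Schwann cells, which fell (log2 fold change -3.51, edgeR adjusted p = 0.0256). The 10 meningeal fibroblast genes summed to 148 to 208 CPM in the homozygous and 157 to 302 CPM in the heterozygous mice, and 1 of them, the collagen gene Col3a1, fell in 7 libraries, beside the same 0.67% (-2.33, edgeR adjusted p = 0.0498). The part of these cells in the paralog 13 counts was not tested.

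The share of Hox RNA taken by each paralog puts the libraries on a common scale. Paralog 8 took 23.5%, 29.7%, 25.6% and 32.0% of the summed Hox TPM in the homozygous mice and 31.5%, 21.7%, 21.7% and 38.98% in the heterozygous mice. It was the largest share in 6 libraries. In heterozygous replicate 2 paralog 10 was larger, at 25.6%, and in heterozygous replicate 3 it equalled paralog 8 at 21.7%. Paralogs 10 to 13 together took 21.7%, 3.57%, 18.2% and 4.47% in the homozygous mice, against 8.13%, 29.5%, 26.6% and 9.25% in the heterozygous mice. As labelled, both genotypes had 2 libraries with a large share of lumbar and sacral paralogs and 2 with a small share. Without the library labelled homozygous replicate 1, a large share was left in 1 of 3 homozygous libraries, and the mean was 8.74% in the homozygous and 18.4% in the heterozygous mice. Paralog 9 took 17.1% to 19.5% in the homozygous and 11.3% to 16.4% in the heterozygous mice, without overlap. That share was singled out after its values were seen and has no test. Among single genes tested in 8 libraries, 4.61% were higher in the homozygous mice without overlap.

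**Figure D3:**
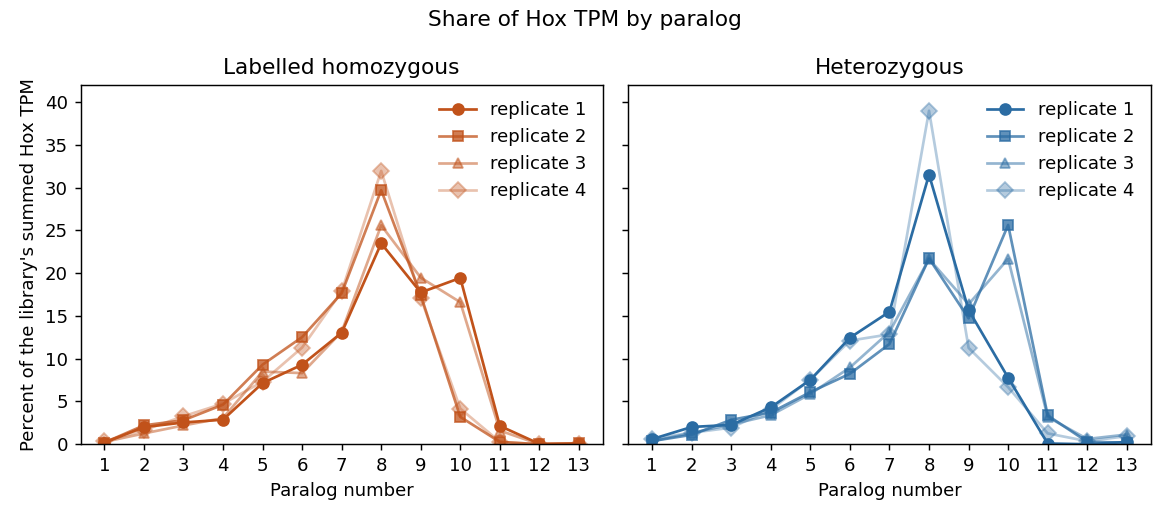
Lines give, for each library, the percent of its summed Hox TPM (y axis) that each paralog number took (x axis), with the libraries labelled homozygous on the left and the heterozygous ones on the right. In 6 libraries the peak is at paralog 8, and 2 libraries of each labelled genotype keep a large share at paralog 10 (16.6% and 19.4% in homozygous replicates 3 and 1, 21.7% and 25.6% in heterozygous replicates 3 and 2).

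A caudal index was taken as log2 of the summed TPM of paralogs 9 to 13 over that of paralogs 4 to 8. It was -0.50, -1.81, -0.64 and -1.76 in the homozygous mice and -1.58, -0.22, -0.30 and -1.88 in the heterozygous mice. The means were -1.18 ± 0.705 in the homozygous and -0.997 ± 0.857 in the heterozygous group (SD, n = 4 each). Their difference was -0.18, smaller than the SD of either group, and it turned positive when homozygous replicate 2 or 4, or heterozygous replicate 2 or 3, was left out, with a range of -0.48 to 0.08 over the 8 libraries left out in turn. Without the library labelled homozygous replicate 1 the difference was -0.41, and in the 6 libraries that also lack heterozygous replicate 1 it was -0.60. As a score over the chosen genes the index has no p.

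The clusters did not give a single picture. The Hoxa genes alone gave a difference of -0.39, the Hoxc genes -0.34 and the Hoxd genes -0.41, each with overlapping genotypes. Without the library labelled homozygous replicate 1 these were -0.74, -0.70 and -0.82. The Hoxb genes alone gave -1.76, -1.91, -1.52 and -1.73 in the homozygous mice and -2.11, -2.25, -2.13 and -2.01 in the heterozygous mice. There the genotypes did not overlap and the difference of 0.40, in 8 as in 7 libraries, had the opposite sign. Among single genes tested, 4.61% were higher in the homozygous mice without overlap in 8 libraries and 9.76% in 7. The cluster indices have no test. In this cluster Hoxb9 supplies nearly all of the upper term, since the cluster has no paralogs 10 to 12 and Hoxb13 was near 0.

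**Figure D4:**
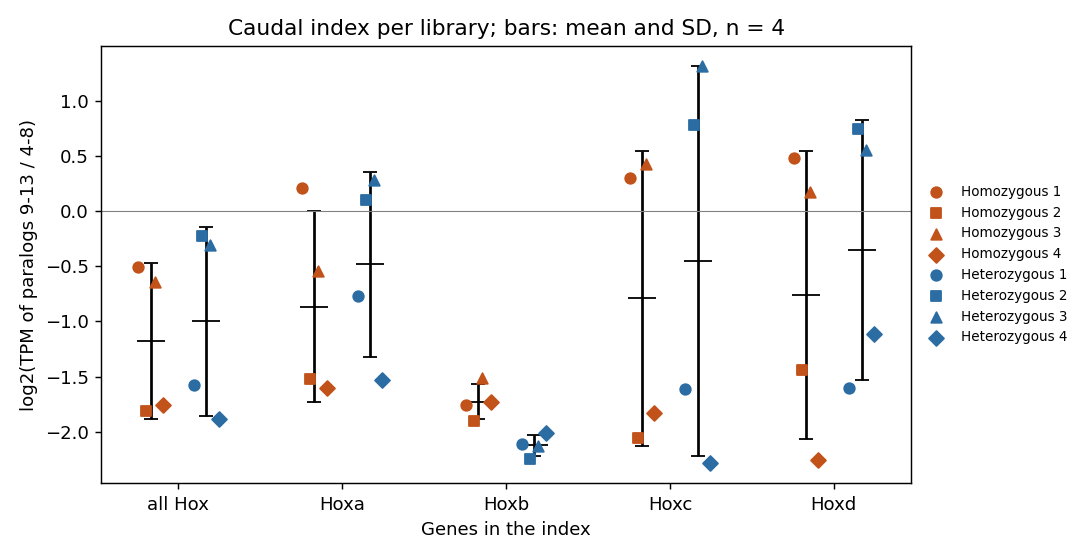
Points give the caudal index (y axis, log2 of summed TPM of paralogs 9 to 13 over paralogs 4 to 8) of each library for all Hox genes and for each cluster alone (x axis), homozygous in orange left of heterozygous in blue, with the mean and SD of 4 libraries in black. For all Hox genes both genotypes, as labelled, split into high and low pairs, and for Hoxb alone the homozygous points (-1.91 to -1.52) lie above the heterozygous ones (-2.25 to -2.01).

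No Hox gene passed the comparison of the genotypes. edgeR's quasi-likelihood test, with Benjamini-Hochberg adjustment over all genes, took in 29 of the 39 Hox genes, and the filter on low counts left out 10. It called 0 of the 29 in 8 libraries, where it called 0% of the 16511 genes tested, and 0 of the 29 in 7 libraries, where it called 1.22% of 16560. DESeq2, limma-voom and limma on log2(TPM + 1) also called 0 Hox genes in both sets of libraries. DESeq2 gave some tested Hox genes no adjusted p, so it could not call them. These were Hoxa2, Hoxa3, Hoxd3, Hoxd4, Hoxc5 and Hoxd11 in 8 libraries, and Hoxa2, Hoxd4 and Hoxd11 in 7. Its smallest adjusted p among Hox genes in 7 libraries were those of Hoxa10 (DESeq2 adjusted p = 0.0745) and Hoxc11 (0.0879). In 8 libraries DESeq2 called 270 genes higher and 409 lower of 16457 with an unadjusted p. There limma-voom called 0, and limma on log2(TPM + 1) called 0 higher and 1 lower, of 16511. In 7 libraries DESeq2 called 431 higher and 652 lower of 16516 with an unadjusted p. There limma-voom called 55 and 54, and limma on log2(TPM + 1) called 90 and 2065, of 16560. At an unadjusted p under 0.05 there was 1 Hox gene in each edgeR fit, Hoxd4, beside 16.8% of all genes in 8 libraries and 19.5% in 7. Groups that did not overlap in CPM were found for 0 of the 29 Hox genes in either direction, against 4.67% of all genes lower and 4.61% higher in 8 libraries, and 8.77% lower and 9.76% higher in 7.

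More of the estimates were negative than positive, and none passed. Negative log2 fold changes were found for 21 of the 29 Hox genes in 8 libraries (median -0.24, all genes 0.00) and for 24 in 7 libraries (median -0.19, all genes 0.00). Hoxd4 had the smallest p, with a log2 fold change of -0.87 (SE 0.33, edgeR adjusted p = 0.23) in 8 libraries and -0.86 (SE 0.38, edgeR adjusted p = 0.251) in 7. Next in 8 libraries came Hoxc5 at -0.81 (SE 0.38, edgeR adjusted p = 0.312), Hoxc11 at -1.57 (SE 0.96, 0.433), Hoxc6 at -0.54 (SE 0.34, 0.446) and Hoxb9 at 0.42 (SE 0.31, 0.517). Hoxb9 and Hoxc9 were the largest positive estimates, and Hoxb8 was at -0.02 (SE 0.31).

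The lumbar paralogs had the largest estimates of the tested Hox genes in 7 libraries, with large errors. All 6 tested genes of paralogs 10 and 11 had negative log2 fold changes, with a median of -0.86 in 8 libraries and -1.92 in 7, where the median SE was 1.14. These genes were high and low in much the same libraries, so their signs are not separate results. In 7 libraries Hoxd11 passed the filter on low counts through heterozygous replicates 2 to 4 (23.8, 48.3 and 24.2 expected counts). Homozygous replicates 2 to 4 held 0, 6.39 and 4.54, so its negative sign there is not read as support. In 7 libraries Hoxa10 was at -1.42 (SE 0.63, edgeR adjusted p = 0.27), Hoxc11 at -2.47 (SE 1.13, 0.28) and Hoxd11 at -2.32 (SE 1.19, 0.328). Hoxd10 was at -2.06 (SE 1.25, 0.419), Hoxa11 at -1.77 (SE 1.15, 0.437) and Hoxc10 at -1.35 (SE 0.78, 0.391). With the library labelled homozygous replicate 1 included, the same genes lay between -0.49 for Hoxa10 and -1.57 for Hoxc11, so that 1 library moved all 6 by more than 1.5 times. Without heterozygous replicate 3, Hoxa11 turned to 0.17 in the 8-library comparison.

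**Figure D5:**
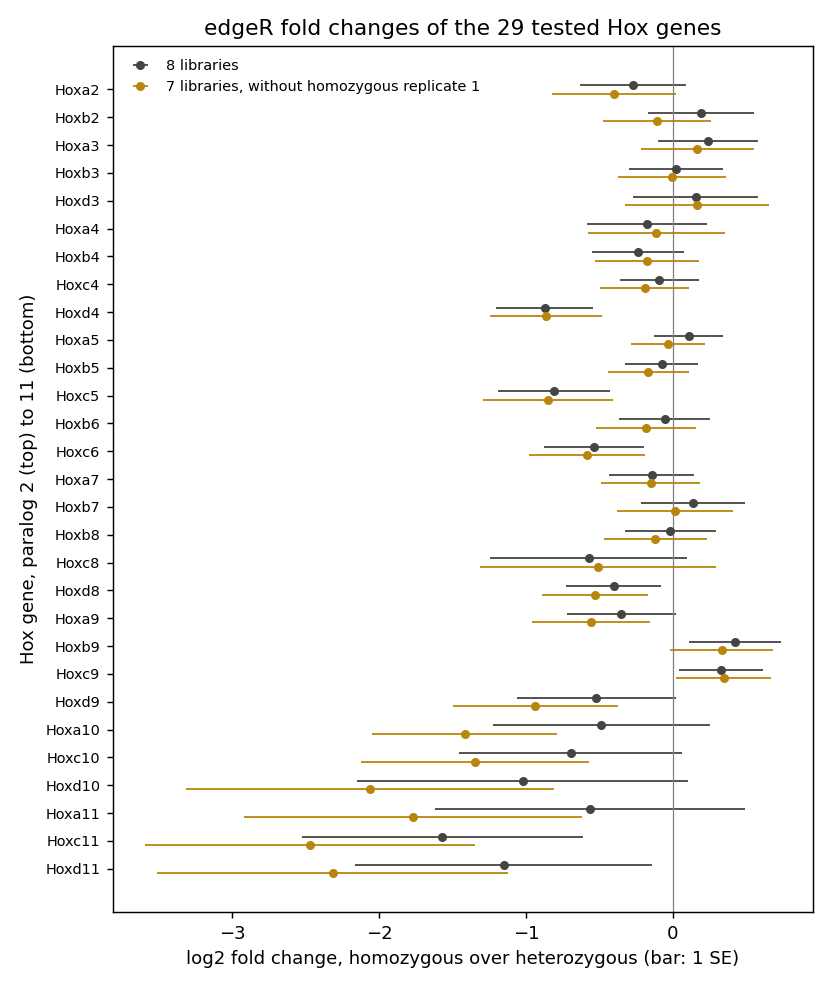
Points give the edgeR log2 fold change, homozygous over heterozygous (x axis), with 1 SE, of the 29 tested Hox genes ordered by paralog from 2 (top) to 11 (bottom), in 8 libraries (grey) and in 7 libraries without the library labelled homozygous replicate 1 (gold). Estimates of paralogs 2 to 9 lie within 1 log2 unit of 0, and those of paralogs 10 and 11 are negative with SE bars about 1 unit long.

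The authors' deposited table of their edgeR comparison lists 5 Hox genes among 185. In the authors' deposited table Hoxc11 had a log2 fold change of -2.94 (false discovery rate 0.000485), Hoxa11 -2.25 (0.0288) and Hoxd10 -2.51 (0.0371), which are under 0.05. Hoxa10 (-1.67, 0.0715) and Hoxc10 (-1.67, 0.0819) are above that level in the authors' deposited table. The authors' tables of significant genes beside it hold 6 libraries, without homozygous replicate 1 and heterozygous replicate 1, while their full count table holds all 8. That the comparison rests on the same 6 is inferred from those tables. The authors' deposited table puts 170 genes under 0.05, which is 1.23% of the 13849 that its ratios of false discovery rate to p imply. Refitted on those 6 libraries with the settings used here, edgeR called 0 Hox genes, beside 1.41% of all genes tested. There Hoxc11 was at -2.88 (SE 0.65, edgeR adjusted p = 0.0709), Hoxd11 at -2.74 (SE 0.64, 0.071), Hoxa11 at -2.18 (SE 0.74, 0.181) and Hoxd10 at -2.45 (SE 0.96, 0.271). In this refit too, Hoxd11 passed the filter on low counts through the heterozygous libraries, where it was high, so its value is not read as support. The 2 libraries left out include heterozygous replicate 1, in which Hoxa11, Hoxc11 and Hoxd11 were at or near 0.

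Spread between mice of the same label was widest in the lumbar genes. The SD within genotypes of log2(CPM + 0.1) had a median of 1.52 for the 6 genes of paralogs 10 and 11 (range 1.20 to 1.93), of 0.57 for the 4 genes of paralog 9 and of 0.52 for the 19 tested genes of paralogs 1 to 8. An SD above 1 was found for all 6 genes of paralogs 10 and 11, for 0 of the other 23 and for 1.61% of the 8813 genes in the same range of mean CPM. This is a description of 8 libraries, with no test.

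Genes that act with or on the Hox clusters did not pass in either fit, where edgeR called 0% of all genes tested in 8 libraries and 1.22% in 7. Among 9 cofactor genes, all tested, 0 passed, and the smallest p were those of Meis3 (log2 fold change 0.31 in 7 libraries, edgeR adjusted p = 0.122) and Meis2 (0.28, 0.277), partners of Hox proteins on DNA. Among 21 regulators of the clusters, 17 were tested and 0 passed. Rnf2, a catalytic subunit of Polycomb complex PRC1, was at 0.33 in 7 libraries (edgeR adjusted p = 0.0708), and Kmt2a, the trithorax-type histone methyltransferase that maintains Hox expression, was at -0.35 (0.0958). Cdx1, Cdx2 and Cdx4, which switch on trunk Hox genes in the embryo, were at 0 in every library.

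Hotair and Hoxa11os, non-coding genes inside the clusters, were low in the libraries where the paralog 11 genes were low. Hotair, a long RNA between Hoxc11 and Hoxc12, had 0.366, 0, 0.161 and 0.0326 CPM in the homozygous mice and 0.0802, 0.632, 1.51 and 0.628 CPM in the heterozygous mice (log2 fold change -3.46 in 7 libraries, edgeR adjusted p = 0.149). Hoxa11os, antisense to Hoxa11, had 0.496, 0, 0.242 and 0.0652 CPM in the homozygous and 0, 0.864, 0.959 and 0.471 CPM in the heterozygous mice. Both were highest in heterozygous replicate 3 and at 0 in homozygous replicate 2. Between 99.4% and 99.6% of reads were on the expected strand, but whether counting used strand is not given in the sources used here, so antisense and sense reads may be mixed. Hoxb3os had 0.209, 0.372, 0.766 and 0.848 CPM in the homozygous mice, against 0.134, 0.299, 0.137 and 0.0785 CPM in the heterozygous mice (2.05 in 7 libraries, edgeR adjusted p = 0.0651). Hoxb3os was not tested in 8 libraries, and in 7 it passed the filter on low counts through homozygous libraries, where it was high. Hotair passed that filter in 7 libraries through heterozygous libraries, where it was high. Neither 7-library value is therefore read as support for a difference between genotypes. The table holds 22 listed cluster neighbours, of which 9 were tested in each fit and 0 passed, and the 6 miRNA genes were at 0 in all libraries. Of all genes tested, edgeR called 0% in 8 libraries and 1.22% in 7.

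Motor neuron markers were set beside the lumbar Hox genes. The 11 genes, none at 0, summed to 116, 78.3, 82.3 and 108 CPM in the homozygous mice and to 94.5, 137, 138 and 142 CPM in the heterozygous mice. In either fit 0 of 11 passed, beside 0% of all genes tested in 8 libraries and 1.22% in 7. Homozygous replicate 2, the lowest library in all 3 paralog 10 genes, was also the lowest in this sum. The orders differed in other libraries. Heterozygous replicate 4 had the highest marker sum but 8.63 TPM over the paralog 10 genes. Homozygous replicate 3, at 82.3 CPM of markers, had 9.6 TPM over those genes. Chodl, a marker of fast motor neurons, had 7.65, 2.23, 3.99 and 4.67 CPM in the homozygous mice, against 4.81, 14.1, 12.3 and 6.91 CPM in the heterozygous mice (log2 fold change -1.39 in 7 libraries, edgeR adjusted p = 0.143). Slc5a7, the choline transporter of cholinergic neurons, was at -0.62 (0.233). The part of motor neuron number in the Hox levels was not tested. Of 13 genes of motor columns 12 were tested and 0 passed, led by Etv4 (-0.45, edgeR adjusted p = 0.146) and Aldh1a2 (-0.64, 0.275); Aldh1a2 is also among the cluster regulators.

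The remaining lists, which mark other regions and tissues the samples could hold, had few calls. Among 12 tested genes of regional neurons 1 passed, in 7 libraries, where 1.22% of all genes tested were called: Pdyn, which encodes the prodynorphin opioid precursor and rose (log2 fold change 0.54, edgeR adjusted p = 0.0458). No gene passed among 12 forebrain genes (Otx1 at 0.32, edgeR adjusted p = 0.323), 4 tested hindbrain genes (Th at -0.78, 0.329, and Tph2 at -0.36, 0.446) and 6 tested dorsal root ganglion genes (Calca at -0.82, 0.283, and Pou4f1 at -0.75, 0.482). Among the 8 muscle genes 0 passed, with Myh4 at -3.52 (edgeR adjusted p = 0.392) and Mylpf at -3.44 (0.404), both highest in heterozygous replicate 1.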

How the data were processed

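RNA of 8 libraries was compared by the genotype label. Per the submitters' processing notes, the tools were cutadapt, STAR, Picard and RSEM and the build was mm10; the sources used here give neither versions nor the annotation. For each library the authors deposited expected counts from RSEM per gene, beside TPM, FPKM and other columns such as gene length. The authors' deposited comparison table gives each gene's log2 fold change and mean log2-CPM with its p-value and false discovery rate. The deposited sequencing report holds the RNA integrity score and other values such as the percent of reads on the expected strand. A demultiplexing summary was not used.

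The Hox genes, lists and tests were chosen with earlier results of these data known. Expected counts were rounded and tested by edgeR 4.0.16 in R 4.3.3 (TMM, filterByExpr by group, robust quasi-likelihood fit, Benjamini-Hochberg over all genes, threshold 0.05). CPM are TMM-scaled; TPM compare genes with each other. The procedure was tested on simulated counts. Alternatives were other size factors, filters, DESeq2 1.42.0, limma 3.58.1 (voom, and log2(TPM + 1)), a fit that was not robust, an adjusted p of 0.1, other definitions of the index, and each library left out. Replicate numbers follow the order of deposition.

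Values in every library were given for Hox genes with a mean of at least 1 TPM, for paralogs 9 to 13 from 0.1 TPM and for the 5 smallest p in each fit. From each other list up to 4 genes that passed, or 2 with the smallest p, were named; Slc6a5, Slc17a7, Hoxa11os, Tbr1 and Neurod6 were named after their values were seen where that rule did not give them. Tables were read with pandas 2.3.3 in Python 3.11.15, and figures drawn with matplotlib 3.10.9. Values of some genes that this rule would name are not reported here.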

Additional observations from a re-analysis of the deposited data

Results flagged for a closer look

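For Hox genes with a mean of at least 1 TPM, genes of paralogs 9 to 13 from 0.1 TPM, the caudal index and the summed Hox TPM, the libraries of each genotype were searched for 1 that stood far from the other 3. Of 56 such groups 3 had one, in each of which the other 3 homozygous libraries were at 0. A single read is enough to set a library apart there, so the usual chance rate of about 1 in 20 does not apply and nothing is read from these. Hoxc12 was 0.05 TPM in the library labelled homozygous replicate 1, Hoxb13 was 0.05 TPM in homozygous replicate 2 and Hoxc13 was 0.02 TPM in homozygous replicate 4.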

How the results depend on the processing

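The count of 0 Hox genes past the threshold held under each alternative run, in 8 and in 7 libraries, but DESeq2 gave some Hox genes no adjusted p. The 7-library difference of the caudal index, -0.41 as reported, was -1.41 with paralogs 10 to 13 over 4 to 9 (-0.92 in 8 libraries, against -0.18). That definition moves paralog 9 to the lower term. The share of Hox TPM in paralog 9 was 17.1% to 19.5% in the homozygous and 11.3% to 16.4% in the heterozygous mice. With the Hoxb genes alone, where Hoxb9 supplies nearly all of the upper term, the 7-library difference was 0.40. Why the share of paralog 9 differed was not tested. For the index as first defined, leaving out 1 library at a time gave -0.48 to 0.08 in 8 libraries and -0.79 to -0.15 in 7. The sign reversed for Hoxa11 without heterozygous replicate 3 (0.17 in 8 libraries; -1.77 to 0.17 with each library left out) and for Hoxb9 without homozygous replicate 4 (-0.13 in 7 libraries; -0.13 to 0.58). Over the alternatives, the adjusted p of Hoxc11 ranged from 0.216 to 0.653 in 8 libraries and from 0.0709 to 0.506 in 7. No paired analysis was possible because each title carries its own animal number and the replicate numbers only follow the order of deposition. Genes of paralogs 12 and 13 did not pass the filter on low counts in the main comparisons, and in the fit without that filter 0 passed. In the 7-library set the filter let in 31 or 32 Hox genes, against 29, when homozygous replicate 2, 3 or 4 was also left out.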
